A study of Rattus norvegicus with 9 samples.

Results

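Nuclear genes for the subunits of the mitochondrial oxidative phosphorylation complexes were examined in cultured rat fibroblasts of the synovium, the lining tissue of joints. Members were taken by symbol: Nduf genes of the a, b, c, s and v series, the 4 Sdh subunits, and symbols beginning with Uqcr, with Cox followed by a subunit number, or with Atp5. Of 80 genes that matched, 77 had a mean of at least 1 FPKM (fragment counts scaled by transcript length and library size) over the 9 libraries, out of 11372 genes at or above that level and 17298 in the file. The 77 comprised 36 genes of complex I, 4 of complex II, 8 of complex III, 12 of complex IV and 17 of complex V. The level of 1 FPKM is the one measured quantity in the choice. Just below it lay Cox6b2, the testis isoform of subunit VIb, with a mean of 0.613 FPKM. Just above it lay Atp5f1 with 1.25 FPKM and then Atp5s with 3.76 FPKM. The other matching genes below it were Cox7a1 (0.211 FPKM) and Cox6a2 (0.0344 FPKM), the heart and skeletal muscle isoforms of their subunits.

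Poly(A) RNA was sequenced from 3 groups of 3 libraries, all from wild-type cells labelled as synovial fibroblasts. The control group was kept in normal culture without IL-1β, a cytokine of joint inflammation. The IL-1β group was in normal culture with the cytokine. The co-culture group was given the cytokine too and shared a transwell with dermal fibroblasts, which sat in the upper chamber above the synovial cells. The sources used here give no dose, time or number of animals. Whether the 3 libraries of a group were separate cultures is not stated either, so each p-value rests on a spread between libraries that may be technical.

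Oxidative phosphorylation makes most of the ATP of resting cells. Complexes I and II pass electrons from NADH and succinate to ubiquinone, complex III passes them on to cytochrome c, and complex IV hands them to oxygen. Complexes I, III and IV pump protons across the inner mitochondrial membrane as they do so, and complex V, the ATP synthase, uses the returning protons to make ATP. A few central subunits are encoded in mitochondrial DNA and the rest by nuclear genes such as those described here. Some subunits exist as alternative isoforms that differ between tissues or respond to low oxygen. Synovial fibroblasts are known to turn to glycolysis in the inflamed joint.

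Promoter sequences are shown for 4 members. The members that moved together did not all belong to one complex, and binding sites shared across complexes are a textbook feature of this gene set. Each run is the 150 bases before the annotated start in RefSeq (assembly GRCr8), read 5′ to 3′ on the strand of the gene. Capitals mark matches to the letters searched: GCGCANGCG for NRF1, CCGGAAG for ETS factors such as GABPA, AAGATGGCG for YY1 and TCAAGGTCA for ERR, each on both strands. Uqcrh rose with IL-1β and Ndufs8 fell, and both carry an ETS match. Ndufa12, with an NRF1 match, and Ndufa4l2, the member with the largest change and no match, fell. The same stretch was searched in Ndufb3, Cox7b, Ndufa3, Sdhc and Atp5b, which are not shown. None of these carried a match, so the members shown over-represent matches.
Uqcrh (chr5:134790883-134791032, minus strand): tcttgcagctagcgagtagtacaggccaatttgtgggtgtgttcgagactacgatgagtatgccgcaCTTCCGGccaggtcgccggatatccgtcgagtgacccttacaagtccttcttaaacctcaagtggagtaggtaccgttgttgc
Ndufs8 (chr1:210573699-210573848, minus strand): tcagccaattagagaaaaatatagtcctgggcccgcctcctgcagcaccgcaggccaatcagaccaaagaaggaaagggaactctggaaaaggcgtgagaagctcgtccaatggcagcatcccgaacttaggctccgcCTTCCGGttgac
Ndufa12 (chr7:30658166-30658315, plus strand): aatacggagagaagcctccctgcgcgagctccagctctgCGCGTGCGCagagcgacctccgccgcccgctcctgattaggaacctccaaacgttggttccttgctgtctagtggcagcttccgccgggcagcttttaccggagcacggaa
Ndufa4l2 (chr7:65242019-65242168, plus strand): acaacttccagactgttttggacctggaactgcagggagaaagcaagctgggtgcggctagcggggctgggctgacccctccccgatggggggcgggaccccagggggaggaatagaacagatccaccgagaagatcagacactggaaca

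Over the whole 300-base window (250 bases before the start and the rest after it), 66 of the members had a sequence, of 27457 genes with one. The NRF1 letters were present in 17 of the 66 (25.8%), in 14.4% of tested genes with a window and in 6.26% of all windows. ETS letters were found in 19 members (28.8%), against 19.7% of tested genes and 9.22% of all. The YY1 letters occurred in 9 members (13.6%), against 4.13% and 1.93%. Of the 9, 6 were in complex I, which held 32 of the 66 windows. ERR letters were present in 2 members (3.03%), against 0.198% and 0.412%. The core letters of the hypoxia response element, ACGTG, which lie inside none of the other strings, occurred in 19 members (28.8%), against 26.7% and 19.7%. By response, the ETS letters were in 7 of 17 members that rose with IL-1β, in 4 of 11 that fell and in 8 of 38 that did neither, so members that moved in opposite directions carried them. In the same order the NRF1 letters were in 5, 2 and 10 members and the YY1 letters in 2, 0 and 7. ERR letters were in 0, 0 and 2, and ACGTG in 6, 2 and 11. These splits were not tested. A match is a run of letters and not a measured binding site.

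The members were abundant and took a nearly constant part of each library. Their FPKM summed to between 2.24% and 2.43% of the library total. The library totals were 679774 to 696329 in the control group, 718498 to 741810 with IL-1β and 704391 to 732278 in co-culture, so the total itself moved with the group. Sequencing depth is unknown, because the file holds FPKM and no counts. By complex, the median of the members' mean FPKM was 112 in complex I, 98.6 in complex II, 126.5 in complex III, 379.9 in complex IV and 376.1 in complex V. The highest member was Atp5b, the catalytic beta subunit of the ATP synthase, at 796 FPKM. Cox4i1, the common isoform of the largest nuclear subunit of complex IV, was second at 653 FPKM.

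The first co-culture library stood apart for these genes. It was the highest of its group in 54 of 77 members, against 8 and 15 for the other two co-culture libraries. Its median deviation from the group mean was 0.08 on the log2 scale over the members and 0.00 over all genes tested. Results that rest on it are given without it below. The cells carried fibroblast markers, with a summed FPKM of 13079 to 13648 in the control, 10891 to 11083 with IL-1β and 11920 to 12154 in co-culture over 9 of 9 genes tested. With IL-1β 4 of the 9 were higher and 5 lower. Each of the 6 endothelial markers lay below 1 FPKM on average. The myogenic regulator Myog was listed at 0 in 8 libraries. Another myogenic regulator on the same list, Myod1, was among the genes tested, with a mean of at least 1 FPKM. Some marker sums moved with the groups. The muscle list, of which Des is the most abundant, summed to 21.0 to 22.0, 7.91 to 8.66 and 19.6 to 21.0 FPKM in control, IL-1β and co-culture, with 3 of 14 tested. The macrophage list summed to 26.3 to 28.4, 36.2 to 40.3 and 26.4 to 28.5 FPKM, with 3 of 8 tested. These were Cd14, Cd68 and Lyz2, of which 2 were higher and 1 lower with IL-1β. The pan-leukocyte marker Ptprc of that list was at 0.04 to 0.13 FPKM. The adipocyte list, mostly Fabp4, summed to 671 to 716, 476 to 519 and 510 to 536 FPKM, with 5 of 8 tested. With IL-1β 1 of these was higher and 4 lower. The synovial lining list, with 5 of 6 tested, summed to 726 to 744, 926 to 950 and 795 to 811 FPKM, without overlap between groups. Of those 5 genes, 2 were higher and 3 lower with IL-1β, so the sum rose while most of the tested genes fell. The keratinocyte list, with 1 of 6 tested, summed to 1.90 to 2.30, 1.41 to 1.85 and 2.35 to 2.68 FPKM, also without overlap. The part of these in the results below was not tested. In bulk RNA, fewer cells of a type and less RNA per cell cannot be told apart.

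**Figure D1:**
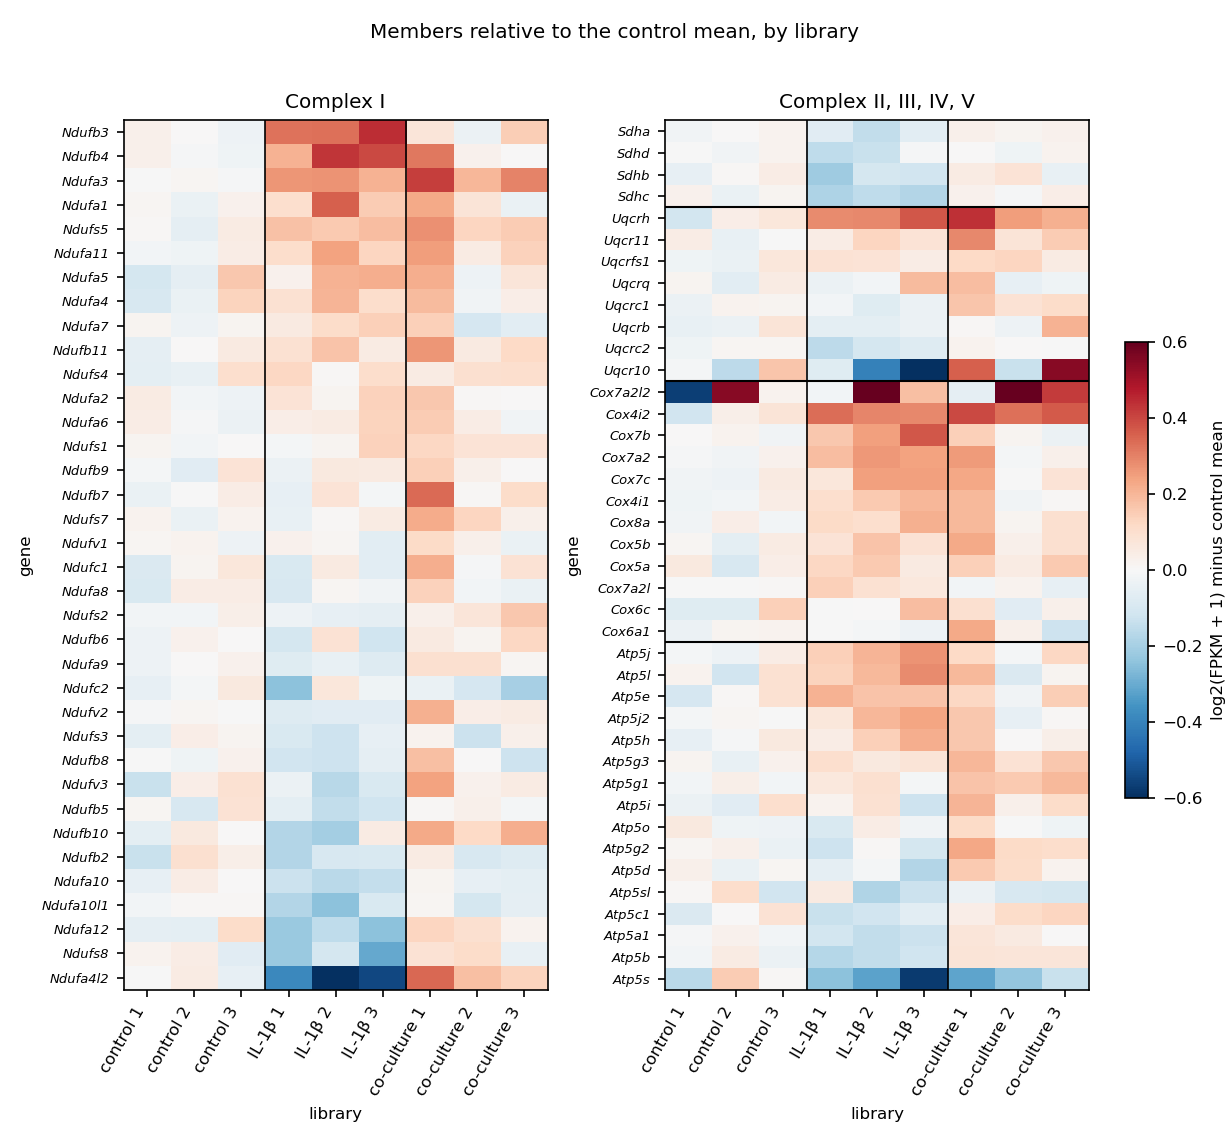
Each row is 1 member and each column 1 library; colour gives log2(FPKM + 1) minus the mean of the 3 control libraries, with the scale saturating at 0.6 in either direction. Atp5f1 is left out because it was listed at 0 in 8 libraries. With IL-1β the Sdh genes are bluer and most Cox genes redder than in the control, and co-culture 1 is the reddest co-culture column in 54 of the 76 members drawn.

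The first comparison asked how IL-1β changed the members relative to the untreated control. Of the members that passed the test, those of complex IV were higher and those of complex II lower, while complexes I, III and V held changes in both directions. In total 31 of 77 members (40.3%) passed the test, against 51.7% of all genes tested. Higher with IL-1β were 19 members (24.7%), against 20.5% of all genes, and lower were 12 (15.6%), against 31.2% of all genes. The test was limma on log2(FPKM + 1) with p-values adjusted by Benjamini-Hochberg over all 11372 genes, with a threshold of 0.05. Of the members that passed, 0 reached an absolute log2 fold change of 1. Of all 11372 genes, 543 reached it, whether or not they passed. Members spread less than genes in general: the SD of the log2 fold change was 0.17 over members and 0.54 over all genes. By quartiles the gap was smaller, at -0.093 and 0.135 over members and -0.196 and 0.106 over all genes. The median log2 fold change was 0.00 over members and -0.04 over all genes. This balance of directions depends on the scaling. With median-of-ratios scaling, which sets the typical gene to no change, 31 members were higher and 9 lower. With quantile normalization 9 were higher and 21 lower. The count of higher members was 11 without control 1, 12 without control 2 and 12 without IL-1β 2. Calls that held under both scalings numbered 9 of the 19 higher and 9 of the 12 lower.

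**Figure D2:**
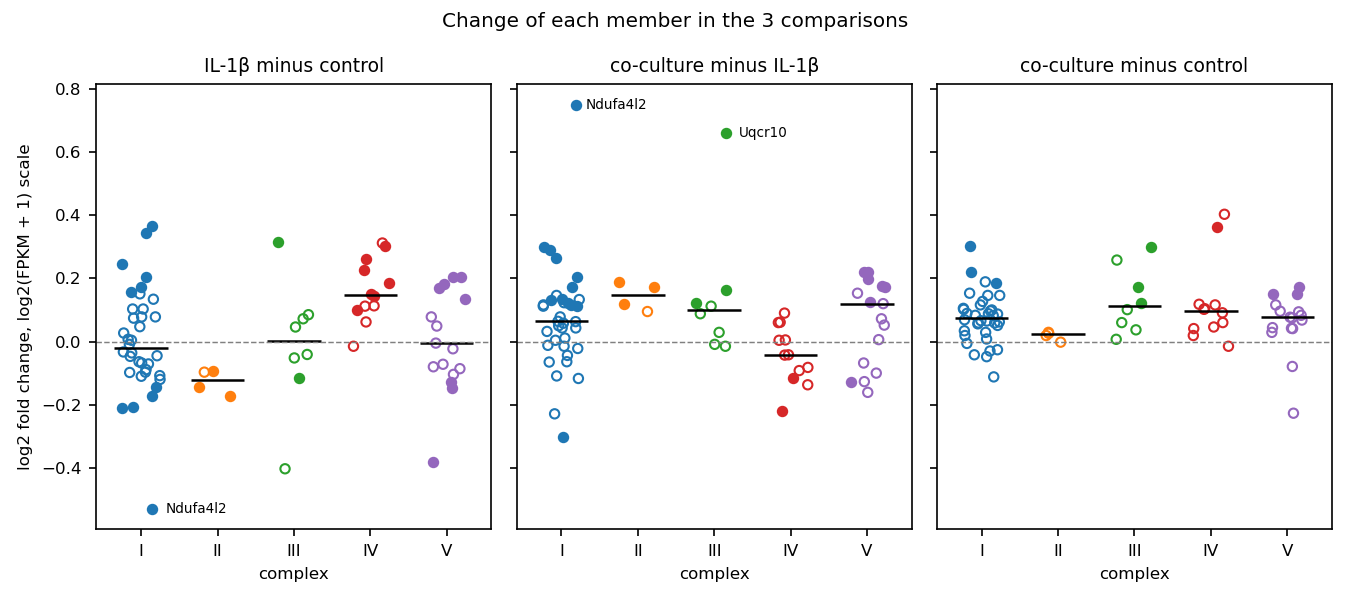
Each point is a member, with its log2 fold change on the log2(FPKM + 1) scale on the y axis and its complex on the x axis; filled points passed the threshold and lines mark the median of each complex. Atp5f1 is not drawn but counts in the complex V medians. With IL-1β the complex IV median lies at 0.15 and the complex II median at -0.12, and in co-culture minus IL-1β these stand at -0.04 and 0.15.

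In complex IV, cytochrome c oxidase, 7 of 12 members rose with IL-1β, against 20.5% of all genes, and the other 5 did not pass. Their median log2 fold change was 0.15, and the count was 9 of 12 with median-of-ratios scaling and 3 of 12 with quantile normalization, with no member lower in either. Summed over its members, complex IV stood at 3960, 3977 and 4142 FPKM in the control libraries, at 4286, 4434 and 4546 with IL-1β and at 4590, 4047 and 4119 in co-culture. The control and IL-1β sums did not overlap. Co-culture 1 lay above the IL-1β sums, and co-culture 2 and co-culture 3 lay within the control range. These sums are not scaled by the library total, which itself moved with the group.

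Cox4i2 (gene 84683) encodes the alternative isoform of subunit IV, known from lung and from cells at low oxygen. It was at 68.9, 76.6 and 78.8 FPKM in the control, at 94.3, 91.6 and 91.2 with IL-1β and at 98.5, 94.2 and 96.5 in co-culture. Every cytokine-treated library, with or without dermal fibroblasts, lay above every control. The log2 fold change was 0.30 ± 0.05 (SE) with IL-1β (adjusted p = 0.00015) and 0.36 ± 0.05 in co-culture against control (adjusted p = 0.00017), whereas co-culture and IL-1β alone differed by 0.06 ± 0.05 (adjusted p = 0.29). Both calls held in all 17 alternative analyses. Cox4i1 (gene 29445), the common isoform, was at 609, 613 and 639 FPKM in the control and 665, 692 and 712 with IL-1β, without overlap. Its increase of 0.15 ± 0.05 passed narrowly (adjusted p = 0.031) and was lost under 7 of 17 alternatives, including quantile normalization, where it was 0.02 (adjusted p = 0.72). It was also lost without control 1 (adjusted p = 0.089), control 2 (0.083), IL-1β 2 (0.073) or IL-1β 3 (0.1). As a share of the FPKM of both isoforms, Cox4i2 made up 10.2%, 11.1% and 11% in the control libraries, 12.4%, 11.7% and 11.4% with IL-1β and 12.2%, 13.4% and 13.4% in co-culture. The share thus ran from lowest to highest in that order, with overlap between IL-1β and co-culture. For shares of 3 libraries against 3, an exact permutation test cannot go below p = 0.1.

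Small complex IV subunits gave the remaining increases. Cox7b (gene 303393), a short membrane subunit, was at 302, 306 and 297 FPKM in the control, 338, 358 and 392 with IL-1β and 334, 305 and 294 in co-culture. It was higher in each IL-1β library than in any other library, with a log2 fold change of 0.26 ± 0.05 (adjusted p = 0.0021), and it fell again in co-culture by 0.22 ± 0.05 on the log2 scale (adjusted p = 0.0065). Both calls held in the 17 alternatives. Cox7a2, the liver-type isoform of subunit VIIa, rose by 0.23 ± 0.06 (adjusted p = 0.0062), from 382 ± 6.22 to 448 ± 11.9 FPKM (SD, n = 3), and this call also held throughout. Cox7a2l, a related protein known to help join complexes III and IV into supercomplexes, rose by 0.10 ± 0.03 (adjusted p = 0.017) and fell in co-culture by 0.11 ± 0.03 (adjusted p = 0.0087). The rise of Cox7a2l was lost with quantile normalization (adjusted p = 0.13) and without IL-1β 1 (0.062). Cox7c and Cox8a completed the 7, at adjusted p of 0.03 and 0.022, and quantile normalization removed both (0.17 and 0.56). Cox7c was also lost without control 1 (0.084), control 2 (0.091), IL-1β 2 (0.1) or IL-1β 3 (0.1), and Cox8a without control 1 (0.069), control 3 (0.063) or IL-1β 3 (0.089). The least abundant member of the complex, Cox7a2l2, was at 4 to 9.80 FPKM in the control and 6.33 to 11.6 with IL-1β, with overlap, and did not pass.

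Complex II, succinate dehydrogenase, links the tricarboxylic acid cycle to the respiratory chain and has only nuclear-encoded subunits. Its 4 genes were lower with IL-1β in their means, and 3 of the 4 passed, against 31.2% lower among all genes. They summed to 398, 396 and 408 FPKM in the control, 359, 365 and 375 with IL-1β and 408, 404 and 404 in co-culture, so the IL-1β libraries lay below all others. Sdhc (gene 289217), a membrane anchor that carries heme, was at 120, 115 and 119 FPKM in the control, 104, 106 and 104 with IL-1β and 120, 117 and 121 in co-culture. Its decrease was -0.17 ± 0.03 (adjusted p = 0.00041) and its rise in co-culture 0.19 ± 0.03 (adjusted p = 0.00021), and both held in the 17 alternatives. The control and co-culture libraries of Sdhc overlapped, with a difference of 0.02 ± 0.03 (adjusted p = 0.69).

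Sdhb (gene 298596), the iron-sulfur subunit, was at 90.6, 94.2 and 96.8 FPKM in the control, 80.8, 87.2 and 86.5 with IL-1β and 97.2, 99.2 and 91.1 in co-culture. The IL-1β libraries did not overlap either group, with changes of -0.14 ± 0.04 (adjusted p = 0.014) and then 0.17 ± 0.04 (adjusted p = 0.0053). Sdha (gene 157074), the flavoprotein that oxidizes succinate, was at 79.6, 81.0 and 82.2, then 77.2, 73.1 and 77.4, then 82.8, 82.0 and 82.5 FPKM, with changes of -0.09 ± 0.03 (adjusted p = 0.025) and 0.12 ± 0.03 (adjusted p = 0.0074). Sdhd (gene 363061), the second anchor, was at 108, 107 and 110, then 97.3, 98.6 and 107, then 108, 106 and 110 FPKM. Library IL-1β 3 lay among the controls, and the changes of -0.10 ± 0.04 (adjusted p = 0.051) and 0.10 ± 0.04 (adjusted p = 0.057) missed the threshold; without that library they were -0.14 (adjusted p = 0.0034) and 0.14 (adjusted p = 0.0041). The lower call of Sdhb was lost without control 3 (adjusted p = 0.055) or IL-1β 1 (0.056), and that of Sdha without control 2 (0.062), control 3 (0.079) or IL-1β 2 (0.1). With median-of-ratios scaling or without control 3, 1 of the 4 genes was lower with IL-1β, and with quantile normalization all 4 were.

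**Figure D3:**
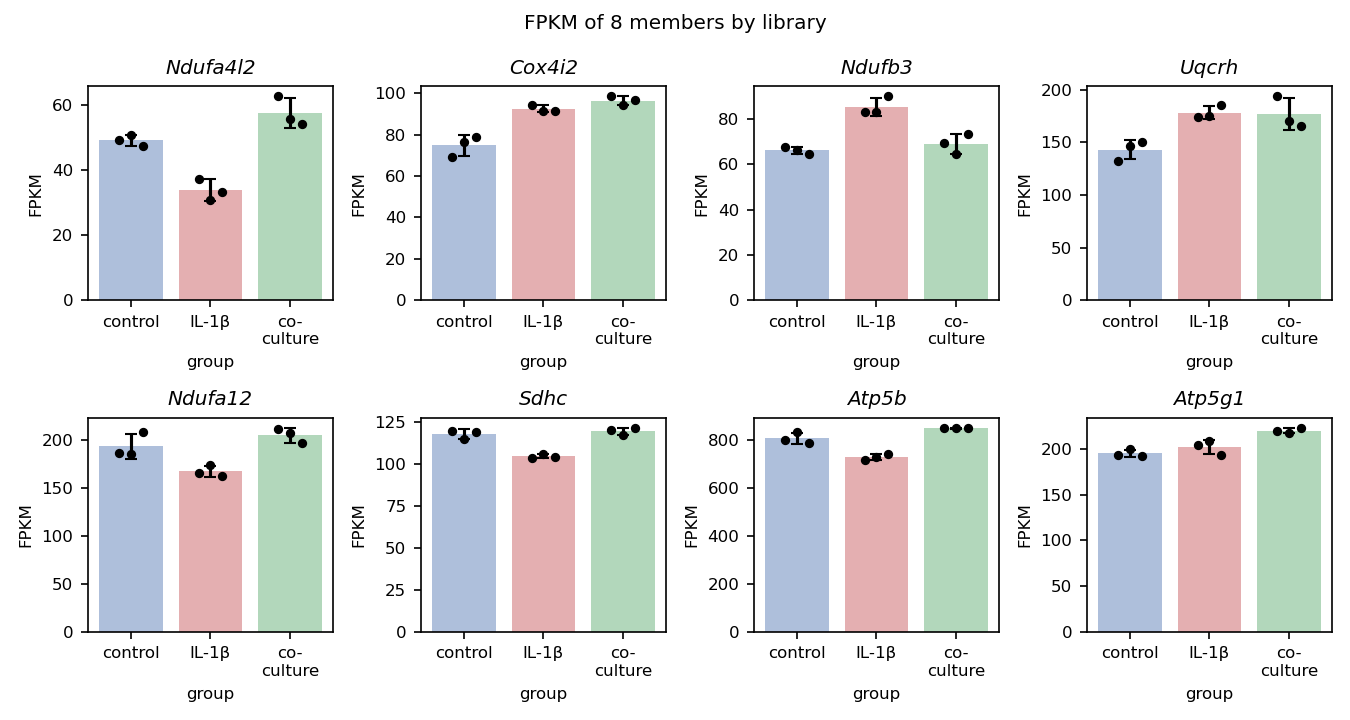
FPKM of 8 members in each library (points), with the group mean (bar) and SD (error bar, n = 3). Ndufa4l2, Sdhc, Ndufa12 and Atp5b are lowest with IL-1β, Ndufb3 is highest with IL-1β, Cox4i2 and Uqcrh are higher in both treated groups, and Atp5g1 is highest in co-culture.

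Complex I, the NADH dehydrogenase, is the largest complex. With IL-1β 6 of 36 members rose and 5 fell, where 20.5% of all genes were higher and 31.2% lower. The counts were 12 and 5 under median-of-ratios scaling and 4 and 9 under quantile normalization. Members were also counted by their place in the complex. Of 19 genes for the membrane arm, which holds the proton pumps, 6 rose and 1 fell. Of 9 genes for the module that oxidizes NADH, 1 fell, and of 5 genes for the quinone-binding module, 1 fell. Among the 7 core subunits shared with bacteria, 1 passed the test, Ndufs8. The counts of the membrane arm were 7 and 1, and 4 and 5, under the 2 other scalings, so its excess of higher genes did not hold under quantile normalization. They were 4 and 2 without control 1, control 2 or IL-1β 2. The difference between modules was not tested.

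Ndufa4l2 (gene 100362331) had the largest change among members that passed. It is a paralog of Ndufa4 that hypoxia induces in many cells. Its FPKM was 49.2, 51.0 and 47.6 in the control, 37.4, 30.9 and 33.4 with IL-1β and 62.9, 55.9 and 54.2 in co-culture. The 3 groups did not overlap, with IL-1β lowest and co-culture highest. The log2 fold change was -0.53 ± 0.07 with IL-1β (adjusted p = 8e-05), to 0.688 of the control mean, and 0.75 ± 0.07 in co-culture against IL-1β (adjusted p = 6.9e-06), a 1.7-fold difference. Both held in all 17 alternatives, within -0.60 to -0.47 and 0.69 to 0.82. The difference between co-culture and control, 0.22 ± 0.07 (adjusted p = 0.049), was kept in 6 of 17 alternatives and fell to 0.16 without co-culture 1 (adjusted p = 0.16). It was also lost without control 1 (0.12), control 2 (0.076), control 3 (0.14), IL-1β 3 (0.07) or co-culture 2 (0.078). Its paralog Ndufa4 (gene 681024) was at 198 to 232 FPKM in the control, 225 to 244 with IL-1β and 208 to 242 in co-culture and passed in no comparison. Ndufa4l2 was thus 19.9%, 19.9% and 17% of their summed FPKM in the control, 14.2%, 11.2% and 12.8% with IL-1β and 20.6%, 21.2% and 20% in co-culture, with the IL-1β libraries below all others. Ndufa4 has since been assigned to complex IV; with both genes counted there, complex I had 6 higher and 4 lower and complex IV 7 higher and 1 lower with IL-1β.

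Ndufb3 (gene 301427), a small accessory subunit of the membrane arm, showed the opposite pattern. It was at 67.6, 66.2 and 64.7 FPKM in the control, 83.1, 83.3 and 90.2 with IL-1β and 69.5, 64.6 and 73.4 in co-culture. All IL-1β libraries were above the other 6, with a rise of 0.36 ± 0.05 (adjusted p = 5.8e-05) and a decrease in co-culture of -0.30 ± 0.05 (adjusted p = 0.00029), both held in the 17 alternatives. Ndufb4, another accessory subunit of that arm, rose from 259 ± 5.11 to 329 ± 26.3 FPKM with IL-1β (0.34 ± 0.09, adjusted p = 0.0086), and its value of 282 ± 35.6 FPKM in co-culture missed the threshold against IL-1β (-0.23 ± 0.09, adjusted p = 0.053) with the first co-culture library and passed without it (-0.33, adjusted p = 0.00082).

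Ndufa3 (gene 691001) and Ndufs5 (gene 362588), also membrane arm accessory subunits, were higher with IL-1β and stayed higher in co-culture. Ndufa3 was at 97.3, 98.3 and 97.1 FPKM in the control, 117, 118 and 113 with IL-1β and 131, 112 and 120 in co-culture. The treated libraries lay above the controls without overlap, by 0.25 ± 0.05 with IL-1β (adjusted p = 0.00088) and 0.30 ± 0.05 in co-culture (adjusted p = 0.00076). Ndufs5 was at 159, 152 and 163 FPKM in the control, 178, 176 and 180 with IL-1β and 191, 173 and 175 in co-culture. Again the treated libraries did not overlap the controls, with differences of 0.17 ± 0.04 (adjusted p = 0.0038) and 0.18 ± 0.04 (adjusted p = 0.0077). All 4 of these calls held in the 17 alternatives.

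Ndufa12 and Ndufs8 were lower with IL-1β and higher in co-culture, and all 4 calls held in the 17 alternatives. Ndufa12 (gene 299739), an accessory subunit of the peripheral arm, was at 186, 186 and 209 FPKM in the control, 166, 174 and 163 with IL-1β and 212, 207 and 196 in co-culture. The IL-1β libraries lay below the other 6, with changes of -0.21 ± 0.05 (adjusted p = 0.0035) and 0.29 ± 0.05 (adjusted p = 0.00039). Ndufs8 (gene 293652), a core subunit with iron-sulfur clusters near the quinone site, was at 92.5, 94.2 and 87.0, then 77.9, 84.6 and 73.5, then 96.9, 98.5 and 88.4 FPKM. IL-1β was again lowest in every library, with changes of -0.21 ± 0.05 (adjusted p = 0.0076) and 0.26 ± 0.05 (adjusted p = 0.0022). Ndufa10, a membrane arm accessory subunit, fell by 0.14 ± 0.03 (adjusted p = 0.0044), from 58.1 ± 1.88 to 52.5 ± 0.621 FPKM. The like gene Ndufa10l1, the lowest member of the complex at 12.96 FPKM, fell by 0.17 ± 0.05 (adjusted p = 0.012), a call lost without IL-1β 2 (adjusted p = 0.052).

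Complex III, the cytochrome bc1 complex, had 1 member higher and 1 lower of 8 with IL-1β, with 3 and 0 under median-of-ratios scaling. The shares of all genes were 20.5% higher and 31.2% lower. Uqcrh (gene 366448), the hinge protein by which the complex meets cytochrome c, was at 132, 147 and 150 FPKM in the control, 174, 175 and 185 with IL-1β and 194, 170 and 166 in co-culture. Both treated groups lay above the control without overlap, by 0.31 ± 0.06 (adjusted p = 0.0015) and 0.30 ± 0.06 (adjusted p = 0.0064), and both calls held in the 17 alternatives. Uqcrc2, one of the 2 core proteins, fell by 0.11 ± 0.03 (adjusted p = 0.0071) and was higher in co-culture by 0.12 ± 0.03 (adjusted p = 0.0053); with median-of-ratios scaling both missed the threshold (adjusted p = 0.059 and 0.12). Uqcrq, the most abundant member at 318 FPKM, passed in no comparison. Uqcr10, the least abundant, was at 16.1, 14.4 and 18.3 FPKM in the control, 15.4, 11.98 and 9.38 with IL-1β and 21.1, 14.7 and 24.1 in co-culture. Its libraries overlapped in each comparison, and its call in co-culture against IL-1β (0.66 ± 0.23, adjusted p = 0.047) was kept in 6 of 17 alternatives, with an adjusted p of 0.012 to 0.13. It was lost without control 1 (0.075), control 2 (0.065), control 3 (0.063), IL-1β 2 (0.1), IL-1β 3 (0.12), co-culture 1 (0.13) or co-culture 3 (0.12).

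Complex V members changed in both directions. With IL-1β 5 of 17 rose and 3 fell, where 20.5% of all genes were higher and 31.2% lower. The counts were 7 and 3 under median-of-ratios scaling and 1 and 7 under quantile normalization. The count of higher members was 1 without control 1, 2 without control 2, IL-1β 2 or IL-1β 3, and 3 without co-culture 3. Both main subunits of the catalytic head fell. Atp5b (gene 171374) was at 799, 835 and 788 FPKM in the control, 716, 729 and 743 with IL-1β and 852, 848 and 850 in co-culture. Its 3 groups did not overlap, with a decrease of -0.15 ± 0.03 (adjusted p = 0.0017) and an increase in co-culture of 0.22 ± 0.03 (adjusted p = 9.9e-05). The difference between co-culture and control, 0.075 ± 0.03, did not pass (adjusted p = 0.11). It did not pass in any of the 17 alternatives either (adjusted p of 0.067 to 0.42). Atp5a1 (gene 65262), the alpha subunit that alternates with beta in the head, was at 431, 441 and 429, then 402, 392 and 396, then 456, 451 and 435 FPKM. IL-1β was lowest in every library, with changes of -0.13 ± 0.03 (adjusted p = 0.0029) and 0.17 ± 0.03 (adjusted p = 0.00043). Those 4 calls held in the 17 alternatives.

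Of the 5 complex V members that rose, 4 belong to the peripheral stalk and the membrane part, and Atp5e is counted with the head. Atp5j, coupling factor 6 of the peripheral stalk, was at 361, 357 and 375 FPKM in the control, 401, 420 and 439 with IL-1β and 396, 361 and 397 in co-culture. Its IL-1β libraries lay above all others, with a rise of 0.20 ± 0.04 (adjusted p = 0.0024) that held throughout and a decrease in co-culture of -0.13 ± 0.04 (adjusted p = 0.032). That decrease was kept in 11 of 17 alternatives and lost without IL-1β 2 (adjusted p = 0.073), IL-1β 3 (0.12) or co-culture 2 (0.14). Atp5h, of the same stalk, and Atp5j2 and Atp5l, of the membrane part, rose at adjusted p of 0.049, 0.026 and 0.045. Each of these was lost with quantile normalization (0.39, 0.22 and 0.25) and without control 1 (0.15, 0.067 and 0.081), control 2 (0.11, 0.053 and 0.14), IL-1β 2 (0.11, 0.079 and 0.09) or IL-1β 3 (0.18, 0.098 and 0.14). Atp5h and Atp5l were also lost without co-culture 3 (0.061 and 0.063), through the shared spread, and Atp5j2 without control 3 (0.063). Atp5e, the small epsilon subunit of the central stalk, rose by 0.18 ± 0.05 (adjusted p = 0.013), a call lost with quantile normalization (0.076) and without control 1 (0.054).

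Under the symbol rule 3 further genes need separate treatment. Atp5s and Atp5sl carry the names Dmac2l and Dmac2 in RefSeq and are known as factors linked to assembly rather than as subunits. Atp5s fell with IL-1β, from 3.85, 5.04 and 4.46 FPKM to 3.58, 3.34 and 2.65, without overlap (-0.38 ± 0.10, adjusted p = 0.0077), and Atp5sl did not pass. Atp5f1 is Atp5pb in RefSeq, a peripheral stalk subunit. It was listed at 0 in 8 libraries and at 11.3 FPKM in co-culture 2. Without counts such a 0 can be a failed estimate, so no fold is given. Without these 3 genes the 74 others counted 19 higher and 11 lower with IL-1β, 23 higher and 4 lower in co-culture against IL-1β, and 10 higher and 0 lower in co-culture against control.

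The second comparison asked what the presence of dermal fibroblasts changed in cells given IL-1β. The members that passed were mostly higher in co-culture in complexes I, II, III and V, and lower in complex IV. Of 77 members 27 (35.1%) passed, against 50% of all genes. Higher in co-culture were 23 (29.9%), against 33.3% of all genes, and lower were 4 (5.19%), against 16.7%. The median log2 fold change was 0.06 over members and 0.06 over all genes. With median-of-ratios scaling the split was 11 higher and 12 lower and the median of the members was 0.00. Without co-culture 1 the lower count was 10. Of the calls 11 of 23 higher and 4 of 4 lower held under both other scalings. This comparison and the first share the 3 IL-1β libraries, so a library error there would move both, in opposite directions; the values are given side by side and not as independent.

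The counts by complex stand against 33.3% higher and 16.7% lower among all genes. In complex I 11 of 36 members were higher and 1 lower, with 4 and 3 under median-of-ratios scaling and 7 and 3 without co-culture 1. In complex II 3 of 4 were higher, or 2 under median-of-ratios scaling. In complex III 3 of 8 were higher, or 1 under median-of-ratios scaling and 5 without co-culture 2. In complex V 6 of 17 were higher and 1 lower, or 4 and 5 under median-of-ratios scaling and 6 and 3 without co-culture 1. The lower call in complex V was lost without IL-1β 2, IL-1β 3 or co-culture 2. In complex IV 2 of 12 were lower, Cox7b and Cox7a2l, or 4 under median-of-ratios scaling. Without co-culture 1 the count was also 4, with Cox4i1 (-0.16, adjusted p = 0.0054) and Cox7a2 (-0.22, adjusted p = 0.00043) added. Among core subunits of complex I, 4 of 7 were higher, or 1 of 7 with median-of-ratios scaling. Of 5 subunits of the ATP synthase head 4 were higher: Atp5a1, Atp5b, Atp5c1 and Atp5d. The gamma subunit Atp5c1, the turning shaft, went from 168 ± 4.34 to 192 ± 6.14 FPKM (0.20 ± 0.04, adjusted p = 0.0028). The delta subunit Atp5d went from 167 ± 9.67 to 188 ± 8.88 FPKM (0.18 ± 0.05, adjusted p = 0.0078) and was lost with median-of-ratios scaling. Ndufb10, a membrane arm subunit with disulfide bonds, was at 106, 104 and 124 FPKM with IL-1β and 140, 130 and 139 in co-culture, without overlap (0.30 ± 0.06, adjusted p = 0.0025). Uqcrc1, the other core protein of complex III, was at 109, 105 and 107 against 124, 117 and 119 FPKM, also without overlap (0.16 ± 0.03, adjusted p = 0.0013). The calls of Atp5c1, Ndufb10 and Uqcrc1 held in the 17 alternatives.

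The third comparison set co-culture with IL-1β against the untreated control. The members that passed were few, and each was higher in co-culture. Of 77 members 10 (13%) were higher, against 12.4% of all genes, and 0 were lower, against 7.91%. In limma 1 member was lower at an unadjusted p under 0.05, against 22 higher. Among all 11372 genes 1473 were lower and 2279 higher at that level. The count of members lower past the adjusted threshold stayed at 0 in the 17 alternatives. Either direction together, 20.3% of all genes passed. The median log2 fold change was 0.08 over members and 0.02 over all genes. The count of higher members was 6 without co-culture 1, 6 without control 2 and 5 with quantile normalization, where the median of the members was 0.02. This comparison shares its libraries with the other two.

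The 10 members were Ndufa3, Ndufs5 and Ndufa4l2 of complex I, Uqcrh, Uqcrc1 and Uqcr11 of complex III, Cox4i2 of complex IV, and the 3 genes of the c ring. Cox4i2, Ndufa3, Ndufs5 and Uqcrh passed in all 17 alternatives, and each had also risen with IL-1β. The c ring is the rotor of the ATP synthase, and Atp5g1, Atp5g2 and Atp5g3 encode the same mature protein with different targeting sequences. Atp5g1 (gene 29754) was at 193, 200 and 193 FPKM in the control, 204, 208 and 194 with IL-1β and 220, 217 and 223 in co-culture. The co-culture libraries lay above the other 6, with differences of 0.17 ± 0.03 from the control (adjusted p = 0.003) and 0.12 ± 0.03 from IL-1β (adjusted p = 0.0081). With median-of-ratios scaling the difference from IL-1β was 0.06 and missed the threshold (adjusted p = 0.2).

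Atp5g2 (gene 171082) was at 371, 376 and 358 FPKM in the control, 339, 371 and 343 with IL-1β and 433, 399 and 396 in co-culture. Co-culture was again highest in every library, by 0.15 ± 0.04 over the control (adjusted p = 0.034) and 0.22 ± 0.04 over IL-1β (adjusted p = 0.0015). Atp5g3 (gene 114630) was at 430, 412 and 432, then 455, 442 and 447, then 488, 451 and 475 FPKM. It was 0.15 ± 0.04 higher in co-culture than in the control (adjusted p = 0.011), with overlap between co-culture and IL-1β. Each c ring call against the control was lost with quantile normalization (adjusted p = 0.074, 0.2 and 0.12). That of Atp5g3 was lost without control 2 (0.051), and that of Atp5g2 without control 1 (0.077), control 2 (0.058), control 3 (0.11) or co-culture 1 (0.12). Of the ring transcripts, Atp5g1 was 19.3% to 20.5%, Atp5g2 33.9% to 38.1% and Atp5g3 41.7% to 45.6% of their sum over the 9 libraries. Uqcrc1 was lost against the control without control 1 (0.082) or co-culture 1 (0.079). Uqcr11, a small subunit, differed by 0.17 ± 0.05 (adjusted p = 0.029) and was lost without control 2 (0.1), control 3 (0.068), co-culture 1 (0.083) or co-culture 3 (0.054).

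**Figure D4:**
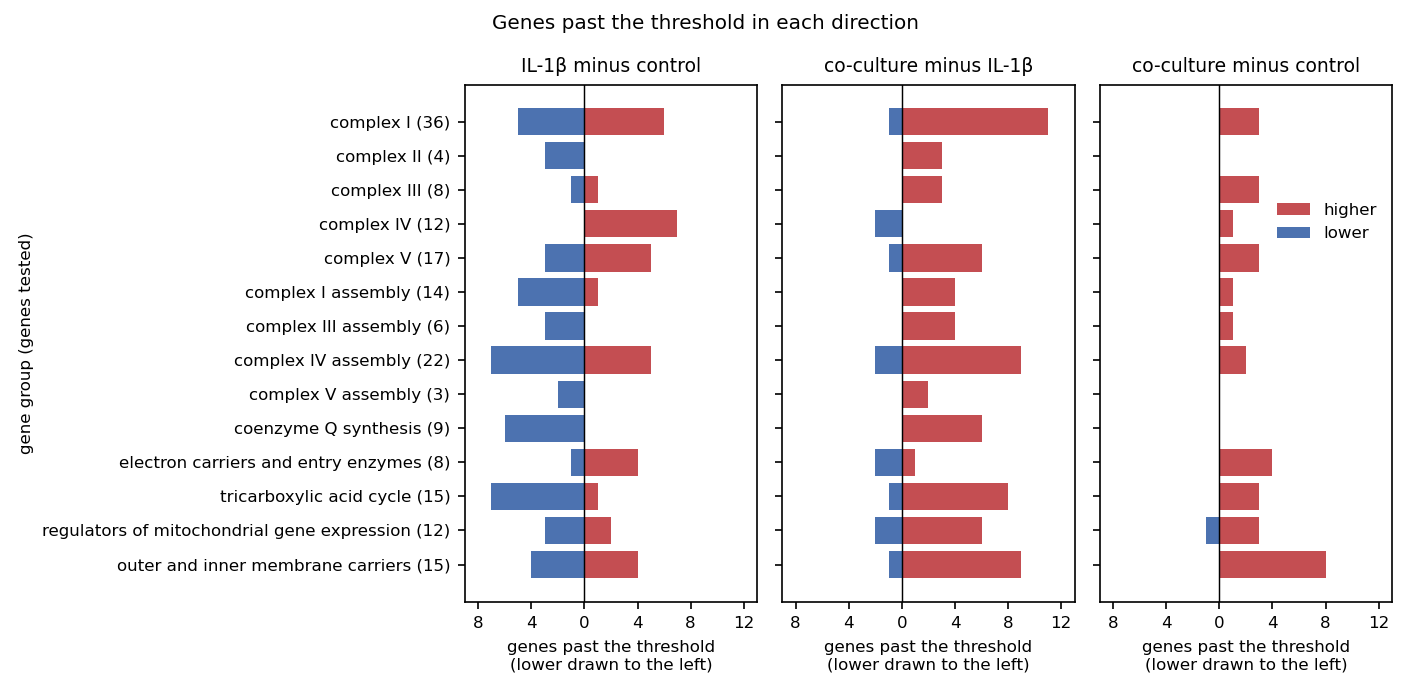
Genes past the threshold in each gene group, higher drawn to the right and lower to the left, in each comparison, with the number tested in parentheses. Coenzyme Q synthesis has 6 of 9 genes lower with IL-1β and 6 of 9 higher in co-culture against IL-1β, and complex IV is the one complex with higher genes alone with IL-1β.

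Genes that work with the complexes were examined from lists, whose counts stand against the shares of all genes tested: 20.5% higher and 31.2% lower with IL-1β, and 33.3% higher and 16.7% lower in co-culture against IL-1β. No list was tested against these shares. Coenzyme Q synthesis, which makes the ubiquinone that carries electrons to complex III, had 6 of 9 genes lower with IL-1β and 6 of 9 higher in co-culture against IL-1β, with medians of -0.25 and 0.23. The counts with IL-1β were 6 lower under both other scalings. Coq3, a methyltransferase of the pathway, went from 17.2 ± 0.848 to 13.7 ± 0.457 FPKM with IL-1β (-0.30 ± 0.05, adjusted p = 0.00043) and to 17.5 ± 0.99 in co-culture (0.33 ± 0.05, adjusted p = 0.00026). Coq4 fell by 0.51 ± 0.09 (adjusted p = 0.00057) and Pdss1, which builds the isoprenoid tail, by 0.32 ± 0.05 (adjusted p = 0.00031). Cyc1, the cytochrome c1 subunit of complex III that the symbol rule misses, was at 120 ± 1.73, 104 ± 3.48 and 127 ± 4.38 FPKM in the 3 groups, with changes of -0.20 ± 0.03 (adjusted p = 0.00041) and 0.29 ± 0.03 (adjusted p = 3.4e-05).

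Electron carriers and enzymes that feed the ubiquinone pool had 4 of 8 genes higher and 1 lower with IL-1β, and 4 and 0 or 4 and 3 under the other scalings. The lower count was 0 without control 2 or IL-1β 2, and 2 without IL-1β 3 or co-culture 3. Cycs, cytochrome c, went from 232 ± 8.36 to 295 ± 17.6 FPKM with IL-1β (0.34 ± 0.05, adjusted p = 9.8e-05) and was at 273 ± 12.4 in co-culture. Gpd2, the mitochondrial glycerol-3-phosphate dehydrogenase that brings electrons from cytosolic NADH, went from 7.93 ± 0.19 to 13.8 ± 0.511 FPKM (0.73 ± 0.05, adjusted p = 1.1e-07) and was lower in co-culture at 9.07 ± 0.368 (-0.56 ± 0.05, adjusted p = 1.8e-06). Coq10b, a ubiquinone-binding protein, followed the same course, at 25.6 ± 0.845, 41.9 ± 0.387 and 29.0 ± 0.418 FPKM, with changes of 0.69 ± 0.03 (adjusted p = 1.1e-08) and -0.51 ± 0.03 (adjusted p = 2.7e-07). Tricarboxylic acid cycle genes had 7 of 15 lower and 1 higher with IL-1β, or 4 and 2 under median-of-ratios scaling and 10 and 1 under quantile normalization, and 8 higher and 1 lower in co-culture against IL-1β. The 8 became 5 under both other scalings and without co-culture 2. Dlst, of the 2-oxoglutarate dehydrogenase complex, went from 87.8 ± 0.693 to 74.4 ± 2.19 FPKM and back to 89.5 ± 1.03 in co-culture, at adjusted p of 3.9e-05 and 2e-05.

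Of 22 assembly factors of complex IV 5 were higher and 7 lower with IL-1β, shares near those of all genes (20.5% and 31.2%). The 7 became 3 under median-of-ratios scaling or without control 1, and 4 without IL-1β 2 or IL-1β 3. Cox17, the copper chaperone, went from 98.9 ± 15.1 to 132 ± 6.55 FPKM (0.42 ± 0.09, adjusted p = 0.0044), while Cox20, which handles the second mitochondrial subunit, went from 21.4 ± 0.857 to 17.4 ± 0.45 FPKM (-0.29 ± 0.04, adjusted p = 8.9e-05). For complex I, 5 of 14 assembly factors were lower and 1 higher with IL-1β, where 31.2% of all genes were lower. The higher call was lost without control 1, control 2, IL-1β 2 or IL-1β 3. Tmem126b went from 39.1 ± 0.645 to 33.1 ± 1.04 FPKM (-0.24 ± 0.04, adjusted p = 0.00043) and to 42.0 ± 1.97 in co-culture (0.33 ± 0.04, adjusted p = 3.4e-05). Complex III assembly factors counted 3 of 6 lower with IL-1β and 4 of 6 higher in co-culture against IL-1β, the latter 2 under median-of-ratios scaling and without IL-1β 2, co-culture 1 or co-culture 3. Those of complex V counted 2 of 3 lower and then 2 of 3 higher, but 1 and 0 under both other scalings. Without IL-1β 2 these were also 1 and 0; the lower count was 1 without control 2, control 3 or IL-1β 1, and the higher count 1 without IL-1β 1, co-culture 2 or co-culture 3. Complex II assembly factors, 3 in number, passed in no comparison.

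Of 12 regulators of mitochondrial gene expression 2 were higher and 3 lower with IL-1β, shares no larger than those of all genes (20.5% and 31.2%), or 1 and 4 without IL-1β 1. In co-culture against IL-1β 6 were higher and 2 lower, where 33.3% and 16.7% of all genes were. Both other scalings gave 4 and 2. Esrra, the nuclear receptor ERRα, was at 25.2 ± 0.747, 34.8 ± 1.34 and 29.7 ± 1.6 FPKM in the 3 groups (0.45 ± 0.05 with IL-1β, adjusted p = 7.2e-06). Ppard, another nuclear receptor, was at 19.2 ± 1.03, 13.7 ± 0.627 and 16.4 ± 0.222 FPKM (-0.45 ± 0.05, adjusted p = 1e-05). Nrf1 and Gabpa, whose letters were searched above, were named outside the rule given below. They differed in no comparison past the threshold, with log2 fold changes of -0.03 and 0.01 with IL-1β. Values of Yy1, whose letters were also searched, are not given here. The coactivator Ppargc1a was near 1 FPKM in all groups. Membrane carriers and import proteins had 4 of 15 higher and 4 lower with IL-1β, then 9 higher and 1 lower in co-culture against IL-1β, where 33.3% of all genes were higher. The 9 became 5 under median-of-ratios scaling, and the lower call was lost without IL-1β 2, IL-1β 3, co-culture 2 or co-culture 3. Slc25a4, an ADP/ATP exchanger, was at 477 ± 11.9, 427 ± 2.57 and 531 ± 15.3 FPKM, with changes of -0.16 ± 0.03 (adjusted p = 0.0011) and 0.31 ± 0.03 (adjusted p = 7.4e-06). Of the 13 genes encoded in mitochondrial DNA, 0 were found by symbol, so the mitochondrial subunits are not analysed here.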

How the data were processed

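The deposited values were FPKM per gene and library, with 2 decimals per the file headers and values; how the authors aligned and quantified reads is not given in the sources used here. GRCm38, a mouse build, is named in the submitters' processing notes, while the gene identifiers are those of rat, so comparing 1 gene across libraries is safer than comparing genes. All 77 members' identifiers were found in the rat RefSeq table (GRCr8), where 17 have another symbol.

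Values were fitted as log2(FPKM + 1) with limma 3.58.1 in R 4.3.3, 1 coefficient per group over 9 libraries (6 residual degrees of freedom), with trend and robust settings, for the 11372 genes whose mean FPKM was 1 or more. P-values were two-sided, adjusted by Benjamini-Hochberg over all of these, with a threshold of 0.05. The script was tested on simulated data. Fold changes on this scale understate changes of low genes. Groups and replicate numbers came from titles. The 17 alternatives were a pseudocount of 0.1, no filter, a mean FPKM of at least 5, 2 scalings, no trend or robust settings, a replicate block, 2 groups alone, and leaving out each library.

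Members and gene lists were chosen with earlier results of these data known. Named members were, per comparison, the 6 with the smallest p in each direction past the threshold, the highest and lowest of each complex, isoform families and all of complex II, and for other lists those with the smallest p or highest FPKM. Others, such as Ndufs8, Ndufb4, Ndufb10, Atp5c1 and Atp5d, were named after their values were seen.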

Additional observations from a re-analysis of the deposited data

How the results depend on the processing

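With IL-1β against control, 19 members higher became 31 with median-of-ratios scaling and 9 with quantile normalization, 12 lower became 21 with quantile normalization, and the median of 0.004 became 0.05 and -0.039; leaving out 1 library gave 11 to 21 higher, 10 to 14 lower and medians of 0 to 0.03. For co-culture against IL-1β, 23 higher and 4 lower became 11 and 12 with median-of-ratios scaling, with a median of -0.002 in place of 0.063; leaving out 1 library gave 18 to 29 higher, 3 to 10 lower and medians of 0.033 to 0.088. For co-culture against control, 10 higher became 5 with quantile normalization, with a median of 0.017 in place of 0.077; leaving out 1 library gave 6 to 12 higher, 0 lower and medians of 0.04 to 0.099. The cause was not tested. The change of Slc25a5 with IL-1β was 0.002 and, with quantile normalization, -0.075 (adjusted p = 0.039). With a replicate block the counts were 17 higher and 14 lower, 21 and 4, and 11 and 0 in the 3 comparisons. Same-numbered libraries of different groups correlated at -0.046 to 0.189 in their deviations over all genes. Over the members the range was -0.141 to 0.487. Over all genes, 6 of 9 libraries correlated best with a library of their own number, among the libraries of the other groups. These values do not settle whether the numbers pair the libraries. The titles do not say, and the main fit left the libraries unpaired. The block brought Cox7a2l2 past the threshold with IL-1β (0.31, adjusted p = 0.0074) and in co-culture against control (0.40, adjusted p = 0.0062). Calls held in all 17 alternatives for 9 of 19 higher and 7 of 12 lower, 11 of 23 and 3 of 4, and 4 of 10 members. Depth is unknown, so precision rests on 3 libraries a group.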
